A study of Mus musculus with 6 samples.

Results

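The miR-125 family guide strands mmu-miR-125a-5p and mmu-miR-125b-5p were profiled in dorsal skin, taken whole, from C3H/HeJ mice, some of which had developed alopecia areata (AA). AA is an autoimmune disease in which hair follicles are attacked and hair is lost. The members were the array probes that carry exactly these names, 2 of the 707 mouse miRNA probes, and each was printed as 5 spots (10 of 3535 miRNA spots). C3H/HeJ is an inbred strain in which part of the mice lose hair without any treatment. Hairless skin of mice with spontaneous AA was hybridised to 3 arrays, and haired skin of unaffected control mice to another 3, with 1 sample an array and Cy3 as the dye named in the labels. No treatment, transgene or deletion is named for either group, and the labels used here give no age. The design note states that 5 samples came from each mouse but ties none of them to an array. It is therefore not known whether arrays share a mouse, and p-values measure the spread between these arrays, which may be technical.

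The miR-125 miRNAs are the vertebrate relatives of lin-4 of Caenorhabditis elegans, a miRNA that times larval development there. A miRNA guides the silencing complex to messenger RNAs mainly through its seed, bases 2 to 8, so members of a family with the same seed share many targets. In mouse skin, miR-125b is known as a miRNA of hair follicle stem cells that is reduced as their progeny differentiate, and raised levels of it hold cells in a stem-like state. miR-125a is expressed broadly and is also known from work on T cells and inflammation. In the genome, mir-125 genes lie beside genes of the miR-99/100 family and of the let-7 family, which promotes differentiation.

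The mature sequences are shown because the seed they share, and the few bases by which they differ, set what the probes can tell apart. They were taken from RefSeq (GRCm38.p6), where all 12 probes of the family and its clusters were matched, each with a sequence identical to the target printed for the array. Capitals mark the seed.
mmu-miR-125a-5p: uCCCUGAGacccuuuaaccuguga
mmu-miR-125b-5p: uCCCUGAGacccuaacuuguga
mmu-miR-351-5p: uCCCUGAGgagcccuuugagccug

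miR-125a-5p, of 24 bases, lies at chr17:17830817-17830840 (plus strand), in Mir125a within the gene Spaca6. miR-125b-5p, of 22 bases, has 2 sources with the same mature sequence. These are Mir125b-1 at chr9:41581940-41581961 (plus strand), within the long non-coding RNA gene Mir100hg, and Mir125b-2 at chr16:77646279-77646300 (plus strand), so the probe cannot tell them apart. Both members have a GC content of 50%. Their targets share the first 13 bases and the last 5 and differ by 3 edits, so the probes may share signal, and how much was not tested. Of the 707 targets, 3 carry this seed, and the third is miR-351 on chromosome X, which shares the first 8 bases and differs by 7 edits from miR-125a-5p and by 10 from miR-125b-5p. The nearest target outside the family was that of miR-10a for miR-125b-5p, at 6 edits, and that of miR-150 for miR-125a-5p, at 8.

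The precursors show the second strand that each gene can release. Capitals mark the 5′ guide arm and the 3′ arm in the RefSeq hairpins of Mir125a (chr17:17830812-17830879, plus strand) and Mir125b-1 (chr9:41581926-41582002, plus strand).
Mir125a: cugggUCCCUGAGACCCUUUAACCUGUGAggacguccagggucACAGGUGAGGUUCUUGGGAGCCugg
Mir125b-1: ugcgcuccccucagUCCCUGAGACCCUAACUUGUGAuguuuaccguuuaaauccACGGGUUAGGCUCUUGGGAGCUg

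The arrays differed in background and in signal. The median of the 145 empty control spots ran from 168 to 274 scanner units on the unaffected arrays and from 209 to 530 on the AA arrays. A probe counted as detected on an array where the mean raw intensity of its 5 spots exceeded the 95th percentile of the empty spots there, and 97 to 202 of 707 probes did so on the unaffected arrays and 115 to 157 on the AA arrays. Over the 88 probes detected on every array, the median raw intensity stood at 4.20 to 16.9 times the empty-spot median on unaffected arrays and at 1.46 to 3.33 times on AA arrays, lowest on AA replicate 3. The 157 miRNAs detected on at least 3 arrays were tested, and both members were among them, each detected on 6 of 6 arrays. Where 3 values of a group are given, they are those of replicates 1, 2 and 3 in this order.

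Raw miR-125b-5p intensity was far above the empty spots on most arrays. The mean of its 5 spots was 7918, 13592 and 10595 scanner units on the unaffected arrays. It was 4717, 6955 and 1474 on the AA arrays. These means were 28.9, 81.1 and 56.0 times the empty-spot median in unaffected skin, against 22.6, 14.2 and 2.78 times in AA. Before normalization every AA array thus lay below every unaffected array. Relative to the empty spots, the signal in general separated the groups too. The median raw intensity of the 88 probes detected on every array was 4.20, 16.9 and 11.4 times the empty-spot median in unaffected skin. In AA it was 3.33, 3.24 and 1.46 times. The undetected probes miR-351, miR-125a-3p, miR-125b-3p and miR-125b* stood at 0.596 to 0.729 times that median on unaffected replicate 1. On AA replicate 2 they stood at 0.732 to 1.15 times. The empty spots may therefore not measure background alike on every array. By background-corrected log2 intensity the median of the 157 tested miRNAs did not separate the groups, with 9.56 on AA replicate 2 and 8.74 on unaffected replicate 1. The raw difference in means of miR-125b-5p was -1.52 on the log2 scale. In whole skin, fewer cells of a type and less RNA per cell cannot be told apart.

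Raw miR-125a-5p intensity overlapped between the groups. It was 2239, 2742 and 2009 scanner units on the unaffected arrays and 777, 2037 and 598 on the AA arrays. AA replicate 2 therefore lay above unaffected replicate 3. On AA replicate 3 the probe was only 1.13 times the empty-spot median of 530, and 1 of its 5 spots (545) was below the 95th percentile of the empty spots (572). On the other 5 arrays it stood at 3.72 to 16.4 times the empty-spot median.

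**Figure D1:**
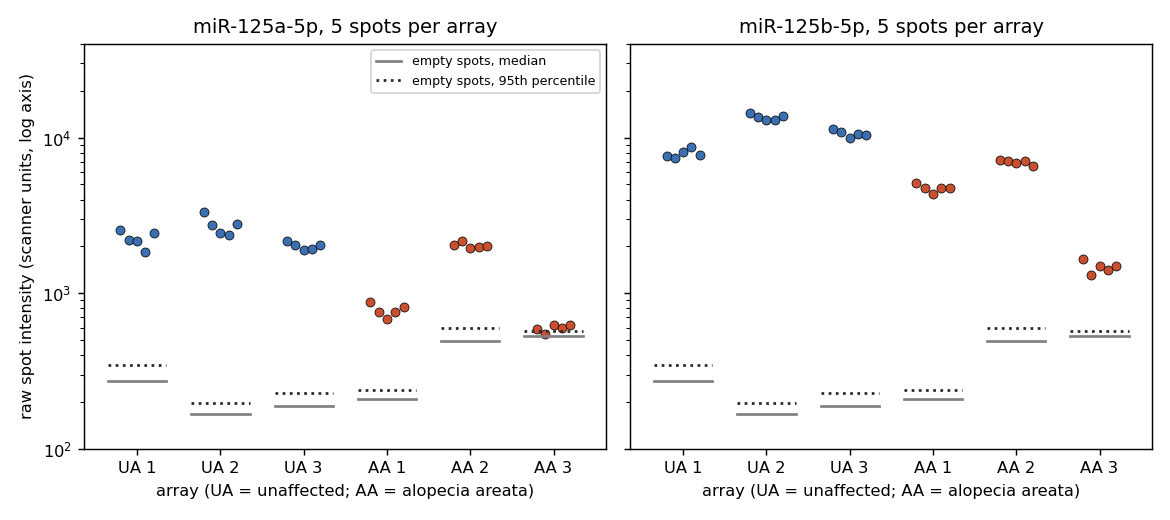
Raw intensity of each of the 5 spots (points, scanner units, log axis) of miR-125a-5p and miR-125b-5p on the 6 arrays, with the median (grey line) and 95th percentile (dotted line) of the empty control spots on each. miR-125b-5p lies above the empty spots everywhere, while miR-125a-5p on AA replicate 3 (mean 598) lies at their level.

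The 5 spots of a member agreed closely within an array. The coefficient of variation of raw intensity over spots was 3.38% to 9.07% for miR-125b-5p and 4.27% to 13.7% for miR-125a-5p. After background correction the SD over spots was at most 0.18 on the log2 scale for miR-125b-5p and 0.29 for miR-125a-5p, both reached on AA replicate 3. The spread between arrays of a group was larger, with SDs of 0.42 to 0.71 for miR-125b-5p and 0.79 to 1.41 for miR-125a-5p. The number of arrays, not of spots, therefore limits the precision.

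After background correction and quantile normalization, which gives every array the same distribution of values, the group means of miR-125b-5p lay close together. Its normalized log2 intensity was 12.90, 12.29 and 12.09 on the unaffected arrays and 12.85, 12.66 and 11.54 on the AA arrays. AA replicates 1 and 2 lay inside the unaffected range and AA replicate 3 lay below it. The means were 12.35 ± 0.71 for AA against 12.43 ± 0.42 for unaffected skin (SD, n = 3 each), a log2 difference (AA minus unaffected) of -0.079 with a standard error (SE) of 0.46. limma gave an adjusted p of 0.981. The 95% interval of the ratio of AA to unaffected, not adjusted for the number of miRNAs, ran from 0.470 to 1.91. These arrays therefore do not exclude ratios within that range.

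In the same normalized values, miR-125a-5p had a lower mean in AA that rested on 1 array. Its normalized log2 intensity was 11.34, 9.94 and 9.99 on the unaffected arrays and 10.37, 10.69 and 8.11 on the AA arrays. AA replicates 1 and 2 again lay inside the unaffected range, and AA replicate 3 lay 1.82 below the lowest unaffected array. The means were 9.73 ± 1.41 for AA against 10.42 ± 0.79 for unaffected skin (SD, n = 3 each). This is 1.62-fold lower in AA (log2 difference -0.70, SE 0.67), and it did not exceed the spread between arrays (limma adjusted p = 0.740). The 95% interval of the ratio of AA to unaffected ran from 0.219 to 1.74.

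Without AA replicate 3 the means of both members were higher in AA, by 0.11 for miR-125a-5p and 0.33 for miR-125b-5p on the log2 scale (limma adjusted p = 0.945 and 0.774). Without unaffected replicate 1 the difference was -0.24 for miR-125a-5p and 0.16 for miR-125b-5p. AA replicate 3 was also the array of lowest signal over empty spots (1.46 times). Its mean over the keratinocyte miRNA list, of which 7 of 7 were tested, was 9.70, the lowest of the 6 arrays, against 9.83 and 10.12 on the other AA arrays and 9.91 to 10.59 in unaffected skin. Its mean over the red cell list, of which 2 of 3 were tested, was 12.52, the highest, against 8.17 and 10.76 on the other AA arrays and 10.58 to 11.50 in unaffected skin. In the keratinocyte list, miR-205 was itself lowest on AA replicate 3, at 11.65 against 13.03 to 13.78 on the other arrays. How far it alone set the list mean was not tested. The list of skin stem cells and differentiation, with 7 of 8 tested, was lowest on unaffected replicate 2 (10.47, against 10.55 on AA replicate 3). The leukocyte list, with 2 of 5 tested, was highest on AA replicate 3 (8.91). The part of these lists in the members' values was not tested.

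Among the 157 tested miRNAs, 0 passed an adjusted p under 0.05 in the limma fit (0% called, smallest adjusted p = 0.402), and 12 had an unadjusted p under 0.05. Neither member was among these 12 (unadjusted p = 0.325 for miR-125a-5p and 0.865 for miR-125b-5p). The groups did not overlap for 18 miRNAs, 11.5% of those tested, against 0 of the 2 members. Over all tested miRNAs the median difference was -0.039, and the difference of miR-125b-5p was near it, at percentile 45.2 from the lowest. That of miR-125a-5p was at percentile 12.7, below the lower quartile of -0.39.

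**Figure D2:**
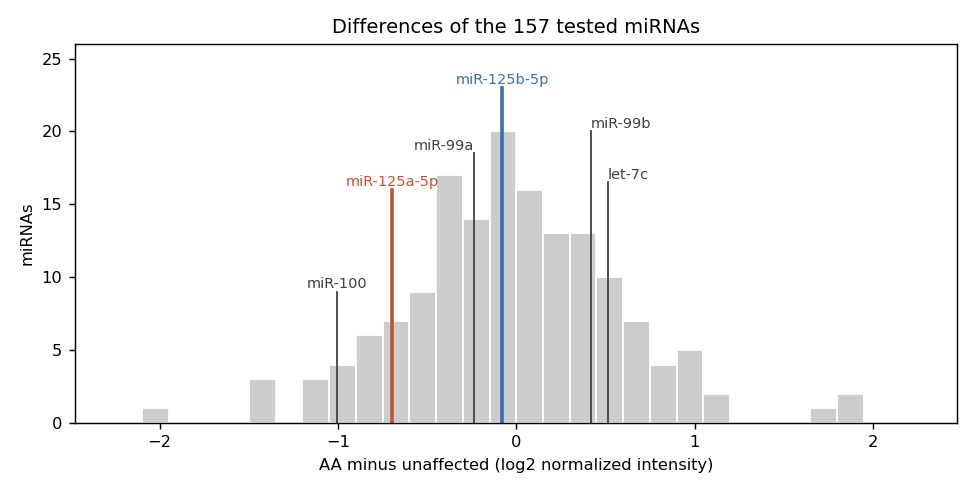
Histogram of the AA minus unaffected differences (log2 normalized intensity, horizontal axis) of the 157 tested miRNAs, with vertical lines at the members and at 4 miRNAs of their clusters (line heights carry no value). miR-125b-5p (-0.079) stands at the middle of the distribution and miR-125a-5p (-0.70) on its lower side, short of miR-100 (-1.01).

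The position of each member among the 157 tested miRNAs of an array, before any scaling between arrays, followed the same pattern. Quantile normalization sets values from the ranks within an array, so this is not a separate check. Ranks of different probes do not order their abundance, but the rank of 1 probe can be followed across arrays. Ranked from the brightest, miR-125b-5p was at 7, 13 and 15 on the unaffected arrays and at 8, 10 and 22 on the AA arrays. miR-125a-5p was at 25, 51 and 50 in unaffected skin and at 41, 35 and 105 in AA. Both members were ranked highest on unaffected replicate 1 and lowest on AA replicate 3.

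The members varied together over the arrays (Pearson r = 0.93, Spearman rho = 0.89 over 6 arrays). Of the other 156 tested miRNAs, miR-125b-5p had the highest correlation with miR-125a-5p. Without AA replicate 3 and unaffected replicate 1, the arrays farthest from the median of miR-125a-5p, r was 0.78 over 4 arrays. The points share arrays, normalization and the shared bases of the targets, so this is a description only.

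Whether the members differed from each other in their change was asked from the difference of their log2 values within each array. This difference, miR-125a-5p minus miR-125b-5p, was -1.56, -2.36 and -2.10 on the unaffected arrays and -2.48, -1.97 and -3.42 on the AA arrays. AA replicate 2 lay inside the unaffected range and the others below it. The group means differed by -0.62 (-2.62 ± 0.74 for AA against -2.01 ± 0.41 for unaffected skin, SD, n = 3 each; exact permutation test, two-sided, p = 0.4, where the smallest possible p is 0.1). Without AA replicate 3 the means differed by -0.22. Since 3 arrays against 3 cannot reach 0.05 in this test, it does not settle whether the members changed unequally.

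The values deposited by the authors after their own processing gave a similar picture for both members. In the authors' deposited table, the processed intensity of miR-125b-5p stood at 8264, 4462 and 4999 on the unaffected arrays and at 7445, 6751 and 3489 on the AA arrays. There, that of miR-125a-5p stood at 2083, 1068 and 982 on the unaffected arrays and at 1125, 1416 and 314 on the AA arrays. The highest array was unaffected replicate 1 and the lowest AA replicate 3 for both. Tested on the log2 scale, the differences in the authors' deposited table were -0.024 for miR-125b-5p and -0.71 for miR-125a-5p (limma adjusted p = 0.989 and 0.690).

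The size of the differences depended on what was taken as equal between arrays, while both remained negative. With the 75th percentile of all probes, most of them undetected, set equal on every array, the differences were -1.99 for miR-125a-5p and -1.80 for miR-125b-5p (limma adjusted p = 0.0797 and 0.0846), while the median of all tested miRNAs moved to -0.95. With no normalization between arrays they were -1.89 and -1.70 (limma adjusted p = 0.190 for each) against a median of -0.84. With the same percentile taken over only those probes that every array detected they were -0.51 and -0.33 against a median of 0.53. Relative to the median of all tested miRNAs, each of these settings gave -1.04 for miR-125a-5p and -0.85 for miR-125b-5p, the same by construction since they differ only by a constant per array, and quantile normalization gave -0.66 and -0.041.

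**Figure D3:**
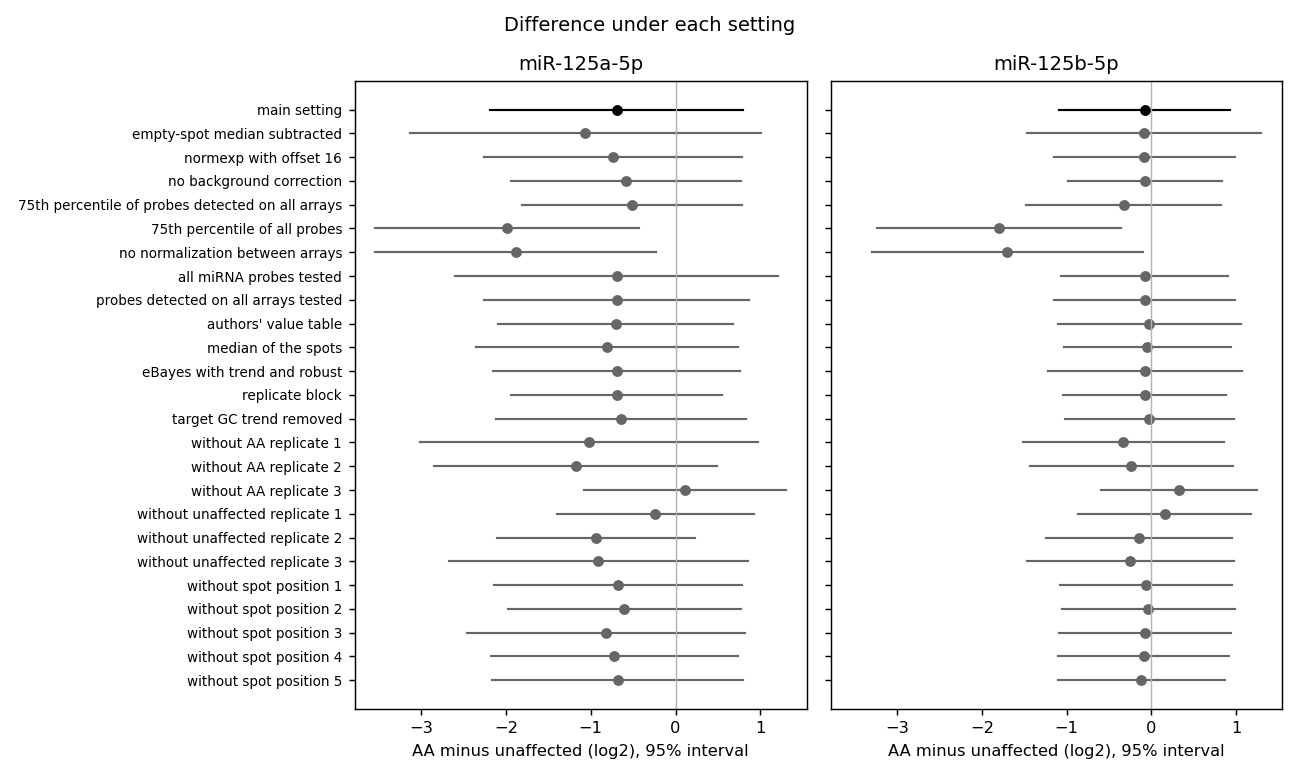
AA minus unaffected difference (log2, points) with its 95% limma interval (lines) for miR-125a-5p and miR-125b-5p under the main setting (black) and each alternative (grey). The intervals include 0 except with the 75th percentile of all probes and with no normalization between arrays. The points move above 0 for both members only without AA replicate 3, and single arrays were left out of quantile-normalized values only.

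The other members of the family were not detected on any array. The miR-351 probe, with the same seed, stood at 0.729 to 1.21 times the empty-spot median, closest to detection on unaffected replicate 3 (228 scanner units against 229 for the 95th percentile). The 3′ strands were at the same low level, from 0.610 to 1.15 times for miR-125a-3p, 0.596 to 1.03 times for miR-125b-3p and 0.676 to 1.04 times for miR-125b*. The probe miR-125b-3p matches the 3′ arm of Mir125b-1 and miR-125b* that of Mir125b-2. Since both were below detection, the 3′ strands do not show which of these genes the miR-125b-5p signal came from. No difference between groups is given for these probes.

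The cluster of miR-125a holds miR-99b, whose mature sequence starts 623 bases before that of miR-125a-5p, and let-7e, which starts 451 bases before it. miR-99b stood at 9.71, 8.95 and 9.25 on the unaffected arrays and at 9.94, 9.49 and 9.74 on the AA arrays (normalized log2 intensity). Its groups overlapped, with a higher mean in AA (log2 difference 0.42, SE 0.38, limma adjusted p = 0.740) that became lower with no normalization between arrays (-0.89), where the median of all tested miRNAs was -0.84. let-7e stood at 10.48, 9.15 and 10.41 on the unaffected arrays and at 10.18, 10.35 and 9.49 on the AA arrays (log2 difference -0.0073, SE 0.47, limma adjusted p = 0.989). Of these, let-7e was low on AA replicate 3 as miR-125a-5p was, but lowest on unaffected replicate 2. Over the 6 arrays miR-125a-5p correlated with let-7e at r = 0.65 (Spearman rho 0.77) and with miR-99b at r = 0.010 (rho 0.14). Without AA replicate 3 and unaffected replicate 1, r was 0.54 for let-7e and 0.65 for miR-99b over 4 arrays, so the order of these partners rested on those arrays.

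The genes of miR-125b lie in a pair of clusters with longer gaps. Mir125b-1 follows Mir100 by 50503 bases with Mirlet7a-2 between them, and Mir125b-2 follows Mir99a by 47339 and Mirlet7c-1 by 46607 bases. miR-100 stood at 8.56, 9.02 and 9.46 on the unaffected arrays and at 8.54, 7.87 and 7.61 on the AA arrays. Every AA array lay below every unaffected array, by a margin of 0.024 or more, as for 11 of the tested miRNAs (7.01%). The log2 difference was -1.01 (SE 0.42, unadjusted p = 0.0361, limma adjusted p = 0.566). miR-100 was detected on 2 of 3 AA arrays, and its raw intensity there was 1.09 to 1.51 times the empty-spot median. Relative to the median difference of all tested miRNAs it was lower in AA in 12 of 12 scalings and omissions of arrays. The values ran from -1.75 to -0.74. Leaving out an array could not make the mean of miR-100 higher in AA, since its groups did not overlap. Of the scalings, 3 differ only by a constant per array and so count as 1. The 12 are therefore not separate checks. miR-100 and miR-125b-5p correlated at r = 0.17 (rho 0.086) over the 6 arrays, and at r = -0.80 over the 4 arrays left without AA replicate 3 and unaffected replicate 1.

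The other cluster miRNAs of miR-125b also did not pass. miR-99a stood at 9.67 ± 0.44 in unaffected and 9.43 ± 0.43 in AA skin, let-7a at 12.77 ± 0.59 and 12.70 ± 0.45, and let-7c at 12.71 ± 0.66 and 13.22 ± 0.49 (SD, n = 3 each). The limma adjusted p was 0.875, 0.981 and 0.740. The higher mean of let-7c became lower with no normalization between arrays (-1.11), against the same median of -0.84. In the authors' deposited table the log2 difference of miR-99a was -0.59 and its groups did not overlap, against -0.24 with overlap here. miR-99a correlated with miR-125b-5p at r = -0.42 (rho -0.49), let-7a at 0.61 (rho 0.70) and let-7c at 0.35 (rho 0.43). Without AA replicate 3 and unaffected replicate 1, r was -0.51 for miR-99a, 0.30 for let-7a and 0.64 for let-7c over 4 arrays. let-7a and let-7c are also made from other genes, and their probes cannot tell the sources apart. The targets of let-7a, let-7c and let-7e are nearly alike in sequence, as are those of miR-99a and miR-100. Their probes may share signal, and how much was not tested. Of the 6 cluster miRNAs, 0 passed in either direction, and 4 had a lower and 2 a higher mean in AA. Over all 157 tested miRNAs, 84 had a lower mean in AA. The median difference of the cluster miRNAs was -0.037 against -0.039 over all tested miRNAs.

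**Figure D4:**
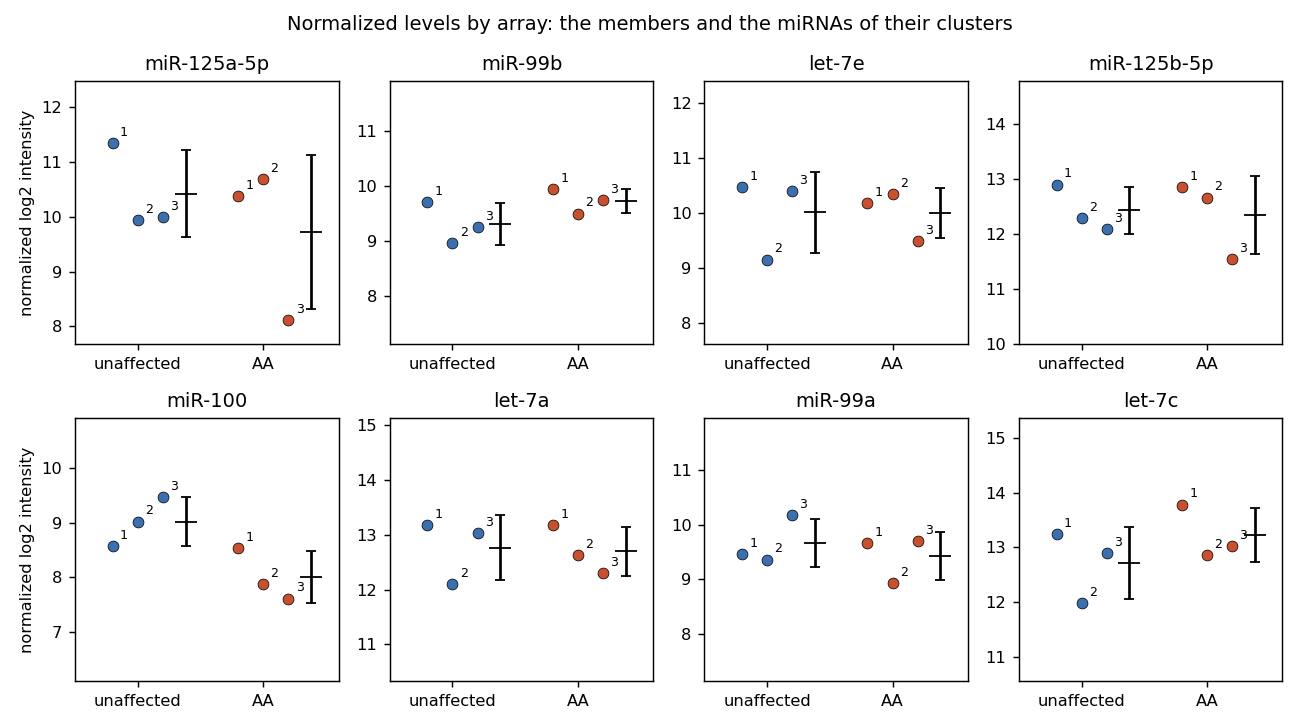
Normalized log2 intensity on each array (points, numbered by replicate; blue unaffected, red AA) with the group mean ± SD (bars, n = 3) for the members and the 6 miRNAs of their clusters, with the same span of values in each panel. AA replicate 3 is the lowest array for miR-125a-5p (8.11) and miR-125b-5p (11.54), and in these values miR-100 alone among the 8 has no overlap between groups.

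Outside the family, the miRNAs whose values over the 6 arrays were most like those of miR-125a-5p were miR-205 (Pearson r = 0.92, Spearman rho 0.93), an abundant miRNA of epidermal keratinocytes and of skin stem cells, miR-2141 (r = 0.91, rho 0.94) and miR-331-3p (r = 0.87, rho 0.94). Those most like miR-125b-5p were miR-331-3p (r = 0.96, rho 0.94), miR-151-3p (r = 0.96, rho 0.94) and miR-2141 (r = 0.92, rho 0.94). They were the highest of 149 miRNAs by r. miR-331-3p and miR-151-3p were each detected on 3 of 6 arrays. Both were undetected on unaffected replicate 1, AA replicate 2 and AA replicate 3, at 1.03 to 1.17 times the empty-spot median. Their r values therefore partly compare a member with background. miR-205 stood at 13.42, 13.03 and 13.25 on the unaffected arrays and at 13.25, 13.78 and 11.65 on the AA arrays, so AA replicate 3 was again the lowest. Without AA replicate 3 and unaffected replicate 1, r with miR-125a-5p was 0.90 for miR-205, 0.81 for miR-2141 and 0.71 for miR-331-3p, over 4 arrays. With miR-125b-5p it was 0.96 for miR-331-3p, 0.95 for miR-151-3p and 0.93 for miR-2141. These miRNAs were picked by r over arrays that include the same 4, AA replicate 2 among them. The values over 4 arrays are therefore a description and not a separate check.

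The wider list of miRNAs of skin stem cells and epidermal differentiation showed no common direction. Of its 8 miRNAs, 7 were tested, 0 passed in either direction, 4 had a lower and 3 a higher mean in AA. The median difference was -0.030. Over all 157 tested miRNAs, for comparison with each list here, 84 had a lower and 73 a higher mean in AA. miR-203, which promotes epidermal differentiation by repressing p63, stood at 12.57 ± 0.42 for AA against 12.62 ± 0.73 for unaffected skin (SD, n = 3 each). miR-214 stood at 11.15 ± 0.73 and 10.67 ± 0.18. miR-24 stood at 12.20 ± 0.32 and 11.87 ± 0.096, and miR-22 at 9.60 ± 0.68 and 9.96 ± 0.45. Of 7 keratinocyte miRNAs 7 were tested and 0 passed, 6 with a lower and 1 with a higher mean in AA (median difference -0.39). Among them miR-200a had no overlap between groups (log2 difference -0.80, SE 0.38, limma adjusted p = 0.588). Of 4 skeletal muscle miRNAs 4 were tested and 0 passed, and 4 had a lower mean in AA (median difference -0.83), with no overlap for miR-133b (log2 difference -0.90, SE 0.46, limma adjusted p = 0.588). Of 5 leukocyte miRNAs 2 were tested and 0 passed, with a log2 difference of 0.74 for miR-150 and -0.52 for miR-223. The part of these cell types in the members' values was not tested.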

How the data were processed

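Per the labels' protocols, a service provider added a poly(A) tail and a tag for Cy3 to the RNA of whole dorsal skin and ran µParaflo chips. The dye is Cy3 in the labels, while the extract protocol also mentions biotin-labelled cRNA without saying how it was used. The spot files deposited by the authors give the mean raw intensity per spot, neither background-subtracted nor normalized, on 3968 spots an array. Their value table holds processed intensity on a linear scale, made by a method not given in the sources used here.

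With limma 3.58.1 under R 4.3.3, raw values were corrected by normexp (offset 50, fitted to all spots), which understates the differences of dim probes. Each probe was given the mean log2 value of its 5 spots, and arrays were quantile-normalized over 707 probes. The groups were compared by a two-sided lmFit and eBayes test. Its p-values were adjusted by Benjamini-Hochberg over all 157 tested miRNAs, with calls at 0.05. Only the limma step was tried on simulated data, which were normalized values with the same spread for every miRNA. The background correction and the normalization were not tested in this way. Each array was taken as 1 sample, named by the replicate number of its label.

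The members and lists were chosen with earlier results of these data known. The miRNAs named were the members, probes with their seed, their 3′ strands, their cluster miRNAs, and the 3 most correlated tested miRNAs per member outside these. The text also names members of the marker lists. Alternatives covered background correction, normalization, the detection filter, the authors' table, the spot summary, the variance model, the replicate block, GC content of the target, single arrays and single spots.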

Additional observations from a re-analysis of the deposited data

How the results depend on the processing

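Neither member passed an adjusted p under 0.05 in limma in any of the 24 alternatives run for each (adjusted p = 0.0797 to 0.946 for miR-125a-5p and 0.0846 to 0.998 for miR-125b-5p). The log2 difference of miR-125a-5p ran from -1.99 to 0.11 and was negative in 23, and that of miR-125b-5p ran from -1.80 to 0.33 and was negative in 22. Alternatives that change only the tested probes, the variance model or the replicate block keep the main differences by construction. The 24 are therefore not separate checks. With single arrays left out of the quantile-normalized values, the ranges were -1.18 to 0.11 and -0.33 to 0.33. The positive values were those without AA replicate 3 (0.11 and 0.33) and, for miR-125b-5p, without unaffected replicate 1 (0.16). With single spots left out the ranges were -0.82 to -0.60 and -0.12 to -0.034. Subtracting the empty-spot median gave -1.06 for miR-125a-5p, and the cause was not tested. The count of miRNAs past the threshold was 0 in the main setting and in 17 of 19 alternatives. With single arrays left out it ran from 0 to 5, with 5 without unaffected replicate 1 and 2 without unaffected replicate 2, and neither member was among them. The difference in change between the members ran from -0.98 to -0.19 over 16 alternatives, and from -0.94 to -0.22 with single arrays left out. By construction, the replicate block and the removal of the GC trend gave the main value (-0.62). The settings that differ only by a constant per array likewise gave a single value (-0.19). The 16 are therefore not separate checks either. With the replicate block the differences were by construction the same (-0.70 and -0.079), with limma adjusted p = 0.768 and 0.984, and 0 miRNAs passed. Arrays with the same number did not deviate together (r = 0.14, -0.10 and -0.12 for replicates 1 to 3), and the labels do not say that numbers pair mice. The signal of miR-125a-5p on AA replicate 3, at 1.13 times the empty-spot median, was the lowest over background of either member on any array.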
